A study of Mus musculus with 2 samples.

Results

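The genes described here are 10 messenger RNAs known as targets of Regnase-1 (Reg-1): Il6, Il12b, Il2, Nfkbiz, Nfkbid, Rel, Icos, Tnfrsf4, Ctla4 and Tfrc. They were listed by name as Reg-1 targets, with no threshold on the values below but with earlier results of these data known. Of the 10, 7 had a row among 20002 genes, and Il6, Il2 and Ctla4 were not analysed here. The 7 were compared between 2 whole-kidney poly(A) RNA libraries, 1 from control mice and 1 from Regnase-2 (Reg-2) CKO mice, to see whether transcripts cut by Reg-1 also differed where its relative Reg-2 was targeted.

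The labels name a conditional knockout in proximal tubules, whereas the methods describe a knockdown: an AAV9 vector carrying an shRNA against Reg-2, injected into the tail vein at 11 weeks of age. No Cre and no promoter were described, and the labels list no other treatment. The control mice received AAV9 with a control shRNA according to the sequencing methods and with an empty vector according to the vector methods. Kidneys were taken at 14 weeks of age by the sequencing methods and at 16 weeks by the vector methods. The RNA came from the left kidney, and C57BL/6J was the strain named for the purchased mice, and whether a library held 1 mouse or a pool was not stated.

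Regnases are endonucleases with a CCCH zinc finger that cut messenger RNAs at short stem-loops in the 3′ untranslated region (3′ UTR), the stretch between the stop codon and the poly(A) tail. Reg-1, encoded by Zc3h12a, keeps inflammatory messages short-lived in macrophages, and in T cells it restrains messages for activation. Reg-2, encoded by Zc3h12b, is a less studied member of the same family. Tfrc, the receptor that takes up iron bound to transferrin, is in addition a textbook target of the iron regulatory proteins, which bind iron responsive elements in its 3′ UTR and protect the message when iron is scarce.

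The stem-loops are shown first because they are the feature for which these messages are known. The 3′ UTRs of GENCODE M21 (build GRCm38, the build named mm10 in the labels) were taken from the transcript with the longest 3′ UTR of each gene and searched on its sense strand for at least 5 Watson-Crick pairs closing a loop of 3 bases, TAT or TGT. Of the 10 genes, 6 held at least 1 match, against 2258 (10.7%) of 21005 3′ UTRs. Because the genes are known for such stem-loops, this count is not independent of how they were chosen. Each match is given 5′ to 3′ as DNA with the loop in capitals.

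Nfkbiz stem-loop 1, chr16:55812613-55812629, minus strand: ttgtttcTATgaaacaa
Nfkbiz stem-loop 2, chr16:55812586-55812600, minus strand: cactatTATatagtg
Nfkbid stem-loop 1, chr7:30428402-30428416, plus strand: gatttcTGTgaaatc
Nfkbid stem-loop 2, chr7:30428430-30428444, plus strand: tgtttcTGTgaaaca
Rel stem-loop 1, chr11:23742028-23742042, minus strand: aatggcTATgccatt
Rel stem-loop 2, chr11:23737529-23737541, minus strand: ttaccTATggtaa
Icos stem-loop 1, chr1:60999487-60999499, plus strand: atttcTGTgaaat
Icos stem-loop 2, chr1:60999831-60999845, plus strand: atttccTATggaaat
Tnfrsf4 stem-loop, chr4:156016541-156016555, plus strand: gtatgcTATgcatac
Tfrc stem-loop 1, chr16:32631250-32631264, plus strand: gacagtTATactgtc
Tfrc stem-loop 2, chr16:32631775-32631787, plus strand: gttagTATctaac

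The stem-loops lay close together in Nfkbiz and Nfkbid and far apart in Rel, Icos and Tfrc. In Nfkbiz, whose 3′ UTR has 1355 bases, they began at bases 101 and 130 after the stop codon, with 12 bases between them. In Nfkbid, with 559 bases, they began at bases 215 and 243, with 13 bases between them. In Icos, with 2606 bases, 331 bases separated the pair, and a shorter annotated 3′ UTR of 106 bases holds neither, in Rel, with 5418 bases, 4486 bases did, and in Tfrc, with 2458 bases, 510 bases did. Tnfrsf4 had the shortest 3′ UTR of the 10, 180 bases, and 1 stem-loop at base 109. The first stem-loop of Nfkbid and the first of Icos shared the same 13 bases, 5 pairs and the loop, which 13 of 21005 3′ UTRs held.

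Longer 3′ UTRs hold more matches by their length, so each gene was also set beside 3′ UTRs within 10% of its own length. Among these, 0.559% held as many as the 2 stem-loops of Nfkbid, 0.861% as many as Nfkbiz, 2.36% as many as Icos and 2.48% as many as Tfrc. At least 1 stem-loop was held by 1.59% of 3′ UTRs as short as that of Tnfrsf4, and 5.78% of those as long as that of Rel held at least 2. Pairs of stem-loops were thus rare at the length of Nfkbid and more common at the length of Rel.

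No match was found in the 3′ UTRs of Il6, Il12b, Il2 and Ctla4, which says only that these letters, with a stem of Watson-Crick pairs alone, are absent there. Il12b, Il2 and Ctla4 held the AU-rich pentamer ATTTA 6, 7 and 3 times, a word present in 13695 (65.2%) of 21005 3′ UTRs. In Il6 it occurred 10 times in the longest 3′ UTR of 1668 bases, part of which codes for protein in other Il6 transcripts, and 6 times in the 427 bases of the transcript with the longest coding sequence. The longer word TTATTTATT, which contains the pentamer, occurred 1 time each in Il2 and Rel and in 1610 (7.66%) of all 3′ UTRs.

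Tfrc alone among the 10 genes also held matches to the iron responsive element, searched as CAGTGN closed by 5 pairs with a C just before the stem, 5 bases ahead of the loop. They are printed with the loop in capitals.

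Tfrc iron responsive element 1, chr16:32631225-32631241, plus strand: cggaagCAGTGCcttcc
Tfrc iron responsive element 2, chr16:32631669-32631685, plus strand: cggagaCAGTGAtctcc
Tfrc iron responsive element 3, chr16:32631716-32631732, plus strand: cgggaaCAGTGTttccc

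Any such match occurred in 16 (0.0762%) of 21005 3′ UTRs, and Tfrc was the only gene with more than 1. The first iron responsive element ended at base 905 after the stop codon and the first Tfrc stem-loop began at base 914. The letters for both kinds of element therefore lay side by side in this message.

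**Figure D1:**
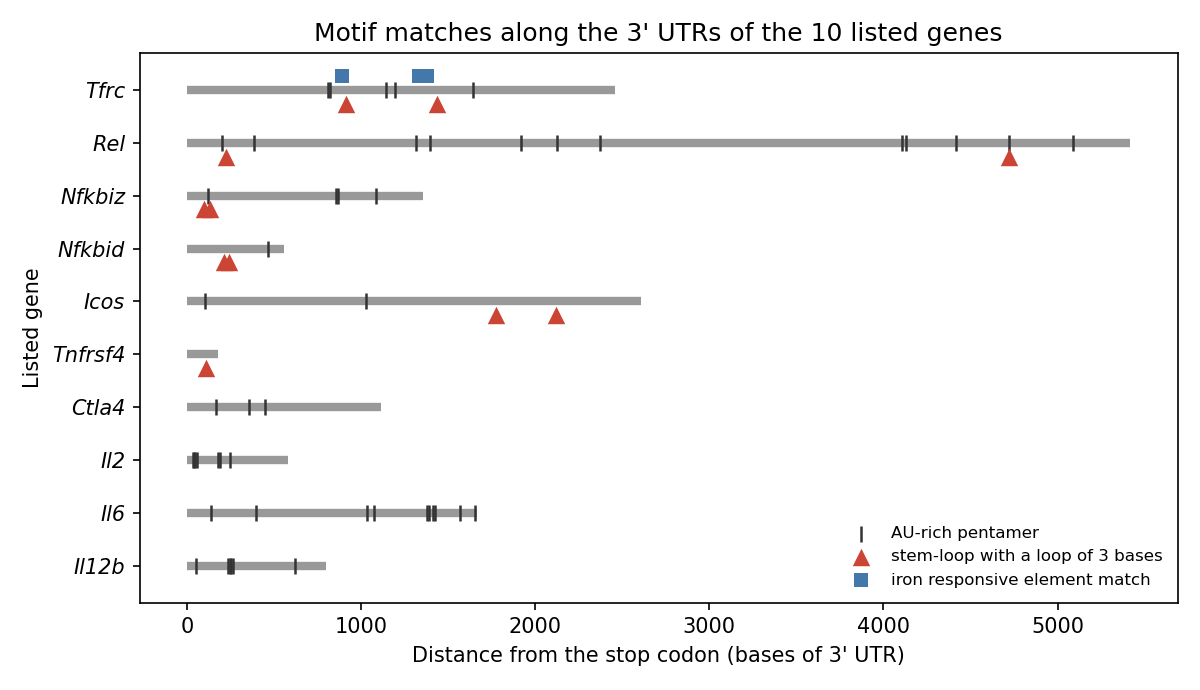
Positions of motif matches along the 3′ UTRs of the 10 genes, in bases from the stop codon, with a grey bar for the length of each 3′ UTR. Triangles mark stem-loops with a loop of 3 bases, squares iron responsive element matches and ticks the pentamer ATTTA, and the paired stem-loops of Nfkbiz (101 and 130) and Nfkbid (215 and 243) sit close together.

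The values deposited for each library had a lowest value above 0, 35 for the control and 51 for the CKO column, so 34 and 50 were subtracted and the remainders are called reads. By this inference the control library held 38851231 reads and the CKO library 43588721. If the authors' normalization rescaled a column, its values are not raw reads, its sum is not a depth and the counting intervals hold only approximately. CKO reads were multiplied by 0.667, the median ratio over genes, before any comparison. Ratios are log2((scaled CKO reads + 1)/(control reads + 1)), folds carry no added read, and 95% intervals cover counting error only. Each group had 1 library, so no difference reported has a replicate check.

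The targeted gene and the tissue were checked first. Zc3h12b had 47 control and 59 CKO reads, 0.837 of the control after scaling (0.561 to 1.26). At this depth no reduction of the Reg-2 message was detectable across the whole organ, so its reads could not check the labels. Kidney markers were abundant in both libraries. Slc34a1, the phosphate transporter of proximal tubules, had 147064 control and 98124 CKO reads, and Umod, the uromodulin of the thick ascending limb, had 90047 and 187056.

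Of the 7 genes with a row, 6 reached 10 scaled reads in at least 1 library. Among these 6, Nfkbiz, Nfkbid and Rel were at least 2-fold higher in the CKO library, where 13.4% of 17469 genes that passed the same filter were. Tfrc was at least 2-fold lower, where 5.35% of those genes were, and Icos and Tnfrsf4 lay between the limits. The median log2 ratio of the 6 was 1.2, against 0.02 over the 17469 genes. Of all genes past 2-fold, 71.4% were higher in the CKO library, a share that became 89.9% with equal totals and 96.5% from the values as deposited. Those 2 settings, the second of which also leaves out the subtracted constants, moved the median of all genes to 0.44 and 0.57 on the log2 scale, and ratios under them are read relative to it. A count over 6 genes is small, and Nfkbid passed the filter through the CKO library alone, so these numbers describe the genes and support nothing further.

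The share of genes past 2-fold depended on abundance. Among 4826 genes with a mean under 100 reads, 27.6% were at least 2-fold higher, and Nfkbid, Icos and Tnfrsf4 were in this class. Among 6699 genes from 100 to 1000 reads, which included Nfkbiz and Rel, 12.4% were at least 2-fold higher. Tfrc belonged to 5512 genes from 1000 to 10000 reads, of which 3.99% were at least 2-fold lower. These classes were drawn after the values were seen.

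The nuclear IκB proteins gave the widest differences. Nfkbiz (gene ID 80859) encodes IκBζ, which binds NF-κB in the nucleus and switches on secondary response genes. Its control library held 181 reads (156 to 209) and its CKO library 1951 (1865 to 2040). The intervals were far apart, and the ratio was 7.19-fold (6.17 to 8.41), or 2.84 on the log2 scale, rank 232 from the top of the 17469 genes.

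Nfkbid (gene ID 243910) encodes IκBNS, another nuclear IκB protein, needed for the development of several lymphocyte types. It had 6 control reads (2.20 to 13.1) and 86 CKO reads (68.8 to 106). The intervals did not overlap, but with 6 control reads the ratio of 9.56-fold had wide bounds, 4.22 and 26.8. Its log2 ratio of 3.06 ranked 160 from the top. With no constant subtracted from the deposited values, the log2 ratio of Nfkbid was 1.17, still past 2-fold.

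Rel (gene ID 19696) encodes c-Rel, an NF-κB subunit of lymphocytes and myeloid cells. It had 60 control reads (45.8 to 77.2) and 250 CKO reads (220 to 283). Rel was thus higher in the CKO library beyond counting error, by 2.78-fold (2.09 to 3.75) or 1.46 on the log2 scale, a smaller difference than for Nfkbiz.

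The costimulatory receptors of T cells had few reads. Icos (gene ID 54167), the inducible costimulator of activated and follicular helper T cells, had 23 control reads (14.6 to 34.5) and 55 CKO reads (41.4 to 71.6). After scaling the ratio was 1.59-fold (0.964 to 2.72), an interval that held 1. Tnfrsf4 (gene ID 22163), which encodes OX40, a receptor that prolongs T cell responses, had 11 control reads (5.49 to 19.7) and 33 CKO reads (22.7 to 46.3). Its ratio was 2.0-fold (0.986 to 4.39) and its log2 ratio with the added read 0.94, so a difference of either gene was not detectable at this depth.

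With equal totals as the scaling, Icos reached 1.06 and Tnfrsf4 1.34 on the log2 scale, past 2-fold. Relative to the median of all genes in that setting they stood at 0.62 and 0.90, under 2-fold, so the crossing was the shift that all genes shared. With the column minimum itself subtracted, which changes the constant and the factor, Tnfrsf4 was just past 2-fold at 1.0, and 4 members in place of 3 were counted as higher. Of all genes past the filter in that setting, 13.5% were higher. With no constant subtracted both genes stood at 0.30, the lowest of the settings.

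Among the cytokines, Il12b (gene ID 16160) alone had a row. It encodes the p40 chain shared by interleukin-12 and interleukin-23, made by dendritic cells and macrophages. It had 7 control reads (2.81 to 14.4) and 12 CKO reads (6.20 to 21), below the filter after scaling. The intervals overlapped, and a difference was not detectable, with a ratio of 1.14-fold (0.415 to 3.43).

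**Figure D2:**
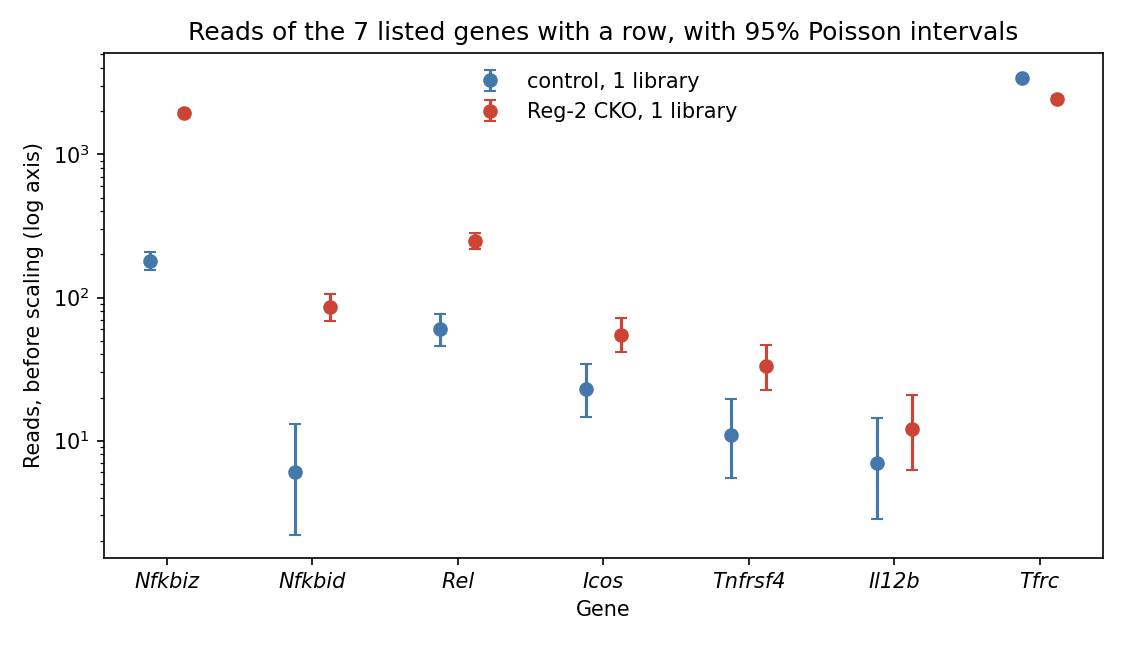
Reads of the 7 genes in the control (blue) and CKO (red) libraries on a log axis, before scaling, with 95% Poisson intervals that cover counting error only. Nfkbiz went from 181 to 1951 reads and Nfkbid from 6 to 86, whereas the intervals of Il12b overlapped.

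Tfrc (gene ID 22042) moved the other way. The control library held 3424 reads of it and the CKO library 2454, so it was lower in the CKO library even before the factor was applied, although the sum over that column was larger. After scaling it stood at 0.478 of the control (0.454 to 0.503), a log2 ratio of -1.07 (-1.14 to -0.99), rank 826 from the bottom of the 17469 genes. The interval reached past the 2-fold limit, and the log2 ratio was -0.65 with equal totals and -0.47 from the values as deposited, or -1.09 and -1.03 relative to the median of all genes in those settings. Tfrc was lower in all 9 settings tried for scaling, constant and added read, and at least 2-fold lower in 7 of them.

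**Figure D3:**
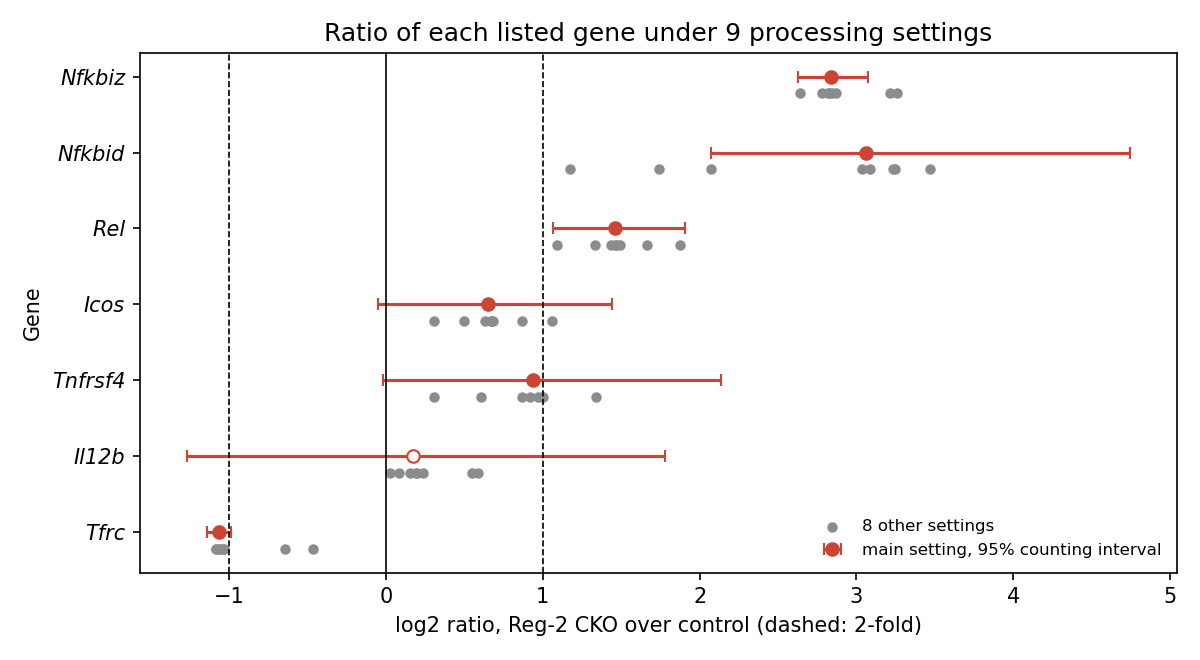
Log2 ratio of CKO over control for each of the 7 genes, with the reported setting in red (95% counting interval, open where the gene failed the filter) and 8 other settings in grey, and dashed lines at 2-fold. Nfkbiz, Nfkbid and Rel stayed beyond 2-fold in all 9 settings, and Tfrc stayed below 0.

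The order of levels was read per kilobase of the same transcripts. In the control library Tfrc stood highest, at 700 reads per kilobase, followed by Nfkbiz at 44.0 (37.8 to 50.9). Tnfrsf4 at 10.7 (5.33 to 19.1), Rel at 8.04 (6.13 to 10.3), Icos at 7.10 (4.50 to 10.7) and Il12b at 3.76 (1.51 to 7.75) followed, and Nfkbid came last at 2.94 (1.08 to 6.41). Below Nfkbiz, neighbours in this order did not differ beyond their counting intervals. Their order also rests on the subtracted constant. As deposited, Nfkbid stood at 40 over 2039 bases and Rel at 94 over 7466 bases in the control library, so Nfkbid would not come last. With the shorter annotated transcript of 810 bases, the control level of Icos was 28.4 reads per kilobase and its CKO level 45.3, so its place in either order depends on the transcript.

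In the CKO library the distance between Tfrc and Nfkbiz had almost closed, at 335 (322 to 348) and 316 (302 to 330) scaled reads per kilobase, with overlapping intervals. Nfkbid, last in the control library with the constant subtracted, came next at 28.1 (22.5 to 34.7). Rel at 22.3 (19.6 to 25.3) and Tnfrsf4 at 21.4 (14.7 to 30) could not be separated from it or from each other by counting error. Icos at 11.3 (8.52 to 14.7) and Il12b at 4.3 (2.22 to 7.51) stood last.

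**Figure D4:**
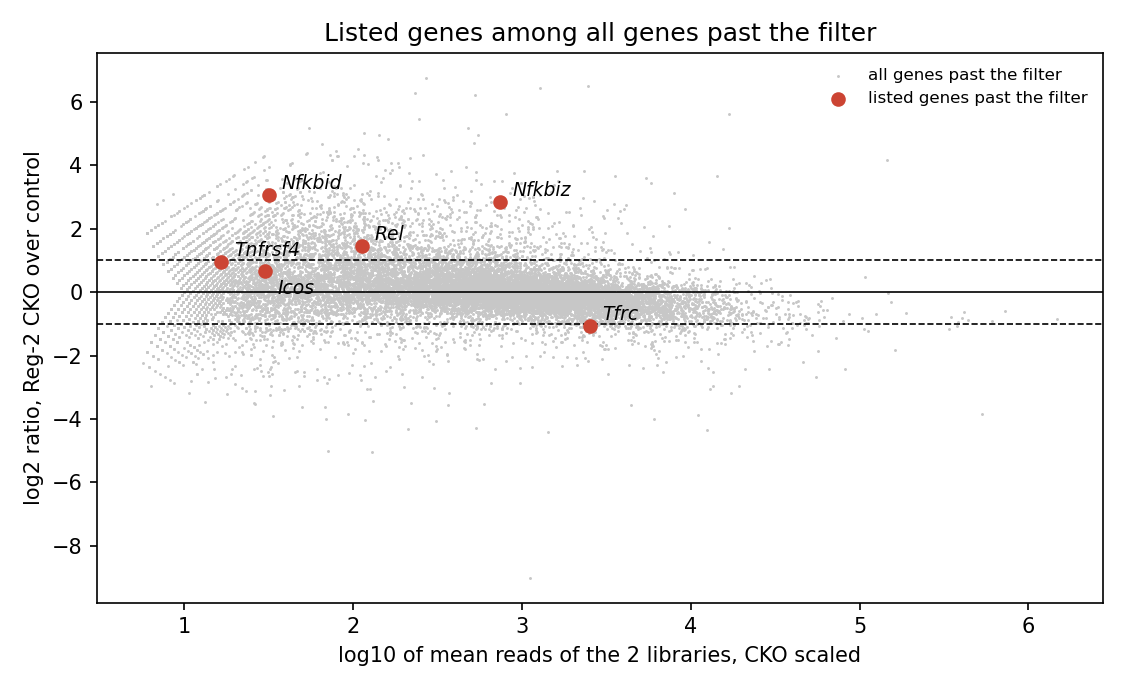
Log2 ratio of CKO over control against log10 of the mean reads of both libraries (CKO scaled) for 17469 genes in grey and the 6 listed genes that passed the filter in red, with dashed lines at 2-fold. Nfkbid (3.06) and Nfkbiz (2.84) lie high in the cloud, and Tfrc (-1.07) lies just under the lower dashed line.

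The genes around the NF-κB members varied among themselves. Of 8 other NF-κB subunits and inhibitors, 4 were at least 2-fold higher and 0 lower, with a median log2 ratio of 0.99. For this and each later list, 13.4% of all 17469 genes were at least 2-fold higher and 5.35% lower. Bcl3, another nuclear IκB protein, was highest at 1.81 (119 control and 631 CKO reads), and Nfkbib, a cytoplasmic inhibitor, lowest at -0.32, a sign that turned to 0.10 with equal totals. Nfkb1, with the most reads of the list over both libraries together, had 902 and 2408.

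Each target was also set against the summed reads of that list, which does not hold it, within a library, where no factor between libraries enters. Nfkbiz had 40.9 reads per 1000 list reads in the control (35 to 47.4) and 175 in the CKO library (167 to 184). Nfkbid had 1.35 (0.497 to 2.95) and 7.72 (6.17 to 9.54), and Rel 13.5 (10.3 to 17.5) and 22.4 (19.7 to 25.4). All 3 targets therefore gained on the summed reads of the list, with non-overlapping intervals in each case. The size of the gain rested on the constants, since with none subtracted Nfkbid stood at 8.51 and 11.8 per 1000 and Rel at 20 and 26, an alternative added after the data were seen. The sum is weighted by abundant genes such as Nfkb1, and the fold of Rel was below that of Bcl3, with overlapping intervals.

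Immune cell markers differed together with these genes. Of 13 macrophage and dendritic cell markers, 12 were at least 2-fold higher, with a median log2 ratio of 2.58. Of these 12, Flt3 and Xcr1, with 8 and 7 control reads, passed the filter through the CKO library alone. With no constant subtracted, 11 of the 13 were at least 2-fold higher and the median was 2.36. Summed, they had 7225 control and 57300 CKO reads, 5.29-fold after scaling. The most abundant was Cd74, the invariant chain of MHC class II, with 2610 and 23956 reads. The ratios ran from 0.51 for Csf1r to 3.66 for Lyz2. In whole kidney, more cells of a type and more RNA per cell cannot be told apart, and the same holds for fewer cells and less RNA per cell.

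Set against the summed reads of this list, the 3 NF-κB genes parted. Nfkbiz stood at 25.1 reads per 1000 marker reads in the control (21.5 to 29.0) and 34.1 in the CKO library (32.5 to 35.6), a small gain. Rel fell behind the summed markers, with 8.30 (6.33 to 10.7) and 4.36 (3.84 to 4.94). That sum is weighted by abundant genes such as Cd74 (6.12-fold). The log2 ratio of Rel, 1.46, lay below the list median, 2.58, and above Csf1r, 0.51. Nfkbid stood at 0.830 (0.305 to 1.81) and 1.5 (1.2 to 1.85), with overlapping intervals, and its order turned to 5.22 and 2.35 with no constant subtracted. The part of these cells in the higher reads of the 3 genes was not tested.

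Icos and Tnfrsf4 were read against T cell markers. Of 10 markers, 8 had a row and 7 were at least 2-fold higher, with a median log2 ratio of 1.78, and Cd3d and Foxp3 were not analysed here. Of these 7, Cd3e, Cd8a and Zap70, with 6, 8 and 5 control reads, passed the filter through the CKO library alone. With no constant subtracted, the 8 stayed above 0, with 2 past 2-fold and a median of 0.58. Summed, the 8 had 99 control and 532 CKO reads, 3.58-fold after scaling. Lck, the kinase of the T cell receptor and the most abundant marker, had 28 and 160 reads, and the ratios ran from 0.90 for Cd247 to 2.22 for Cd3g. Without the subtraction Lck stood at 1.17, Cd247 at 0.29 and Cd3g at 1.05.

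Icos, which is not among the markers, had 232 reads per 1000 T cell marker reads in the control (141 to 369) and 103 in the CKO library (76.9 to 137). These intervals did not overlap, and Icos was lower relative to T cell markers in the CKO library while its own reads were not fewer. The values were closer, 154 and 113, when no constant was subtracted. Tnfrsf4, likewise outside the list, had 111 (53.7 to 208) and 62.0 (42.3 to 88.2), and its intervals overlapped. What part T cell number had in the reads of either gene was not tested. Of 4 B cell markers only Cd79b was analysed here, with 23 and 40 reads.

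Tfrc was read against red cell precursors, which hold much of it, and against proximal tubules. Of 6 erythroid markers, 5 had a row, with 0 past 2-fold and a median log2 ratio of -0.01, which turned to 0.41 with equal totals. The range ran from -0.06 for Hba-a2, which may share reads with the near-identical Hba-a1, to 0.09 for Alas2. The globin gene Hbb-bs, the most abundant, had 6084 and 9054 reads. Per 1000 erythroid marker reads, Tfrc stood at 236 in the control (227 to 245) and 113 in the CKO library (109 to 118), about as far apart as its own scaled values.

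Of 7 proximal tubule markers, 2 were at least 2-fold lower and 0 higher, and their median log2 ratio was -0.62, which became -0.20 with equal totals. The range ran from -1.62 for Slc22a6, the organic anion transporter OAT1, to 0.41 for Slc5a12. Their summed reads were 405203 and 340323, 0.560-fold after scaling. Per 1000 of these reads, Tfrc stood at 8.45 (8.17 to 8.74) in the control and 7.21 (6.93 to 7.5) in the CKO library. Relative to the summed reads of the proximal tubule list Tfrc was thus lower by far less than relative to all genes. That sum is weighted by abundant genes such as Slc34a1 (0.445-fold), and the log2 ratio of Tfrc, -1.07, lay below the list median. The part of the tubules in its lower reads was not tested.

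Proliferating cells need the transferrin receptor, and proliferation markers were higher in the CKO library where Tfrc was lower. Of 5, 4 were at least 2-fold higher, with a median log2 ratio of 3.0, or 2.11 with no constant subtracted. The highest was Cdk1 at 3.13 (2.11 in that setting), and the lowest was Pcna at 0.51, with 1203 and 2566 reads and the most of the list.

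Other genes of the iron regulatory system differed less than Tfrc. Of 8, 0 were past 2-fold in either direction, and 1 was higher with equal totals. Their median log2 ratio was -0.46, and it turned to 0.13 from the values as deposited. Fth1, ferritin heavy chain, was lowest at -0.80 with 131938 and 113587 reads, and Slc40a1, the iron exporter ferroportin, was highest at 0.63. Slc11a2, an iron importer that like Tfrc carries its element in the 3′ UTR, stood at -0.51. Tfrc was lower than each of these 8 genes on the log2 scale.

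**Figure D5:**
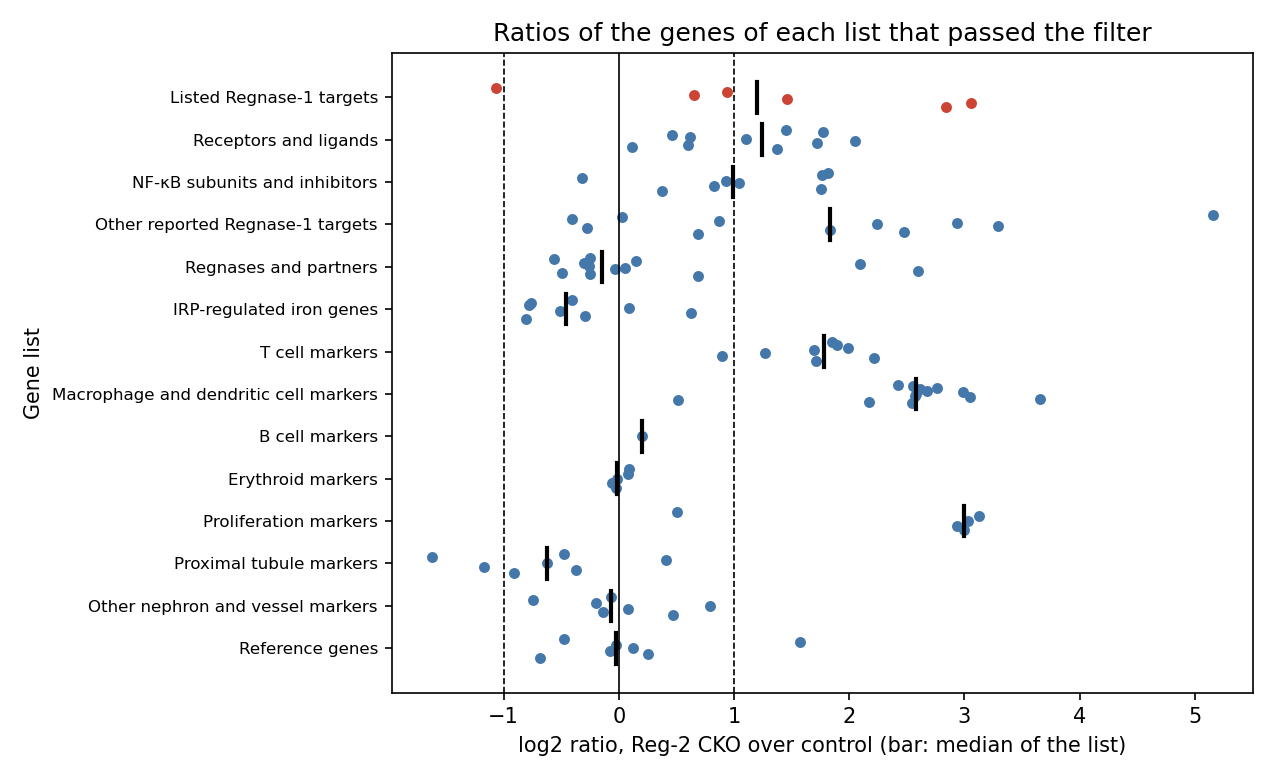
Log2 ratio of CKO over control for each gene of the lists that passed the filter (points), with the median of each list as a black bar and dashed lines at 2-fold. The listed Reg-1 targets (red) spread from -1.07 for Tfrc to 3.06 for Nfkbid, macrophage and dendritic cell markers had a median of 2.58, and the proximal tubule median of -0.62 became -0.20 with equal totals.

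The partner chains and receptors of the 10 genes were taken as a list of 14, of which 12 had a row and Il12a and Tnfsf4 were not analysed here. Of the 10 that passed the filter, 6 were at least 2-fold higher and 0 lower, with a median log2 ratio of 1.24. With no constant subtracted, 3 of them were past 2-fold and the median was 0.62. For the interleukin-6 receptor, the ligand-binding chain Il6ra had 72 control and 283 CKO reads (1.38), and the signalling chain Il6st, the lowest of the list, had 5891 and 9590 (0.12). All 3 chains of the interleukin-2 receptor were at least 2-fold higher, but with no constant subtracted Il2ra (0.68) and Il2rg (0.81) were not, and Il2rb stood at 1.21. Il2ra had 11 and 58 reads (1.72), Il2rb, the highest of the list, 23 and 148 (2.05), and Il2rg 61 and 198 (1.10).

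On the side of antigen-presenting cells, Icosl, the ligand of Icos, had 248 and 571 reads (0.62). Of the ligands bound by Ctla4, Cd86 had 45 and 235 reads (1.78) and Cd80 had 7 and 15 (0.46). Cd28, which shares those ligands, had 4 and 19 reads, with a ratio of 3.17-fold (1.05 to 12.8). It passed the filter through the CKO library alone, and with no constant subtracted its log2 ratio was 0.28. Il23a, the partner of Il12b in interleukin-23, had 6 and 14 reads and failed the filter, as did Il12rb2 with 8 and 10, whereas Il12rb1 had 12 and 28 (0.60). Receptor chains for Il6 and Il2 and ligands of Ctla4 were thus measured, although the 3 genes themselves were not analysed here.

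The nucleases themselves did not differ alike. Zc3h12a, which encodes Reg-1 and is a target of its own protein, had 116 control and 281 CKO reads, 1.61-fold (1.30 to 2.02), under 2-fold. Its log2 ratio was 1.10 with equal totals and 1.14 from the values as deposited, but 0.66 and 0.57 relative to the median of all genes there. Zc3h12c, the relative with the most reads (1985 and 2121), stood at -0.49 on the log2 scale, which turned to 0.10 from the values as deposited. Zc3h12d, a lymphocyte member of the family, had 8 and 80 reads, 6.67-fold (3.23 to 16), and its log2 ratio of 2.59 was 1.04 with no constant subtracted. The ratio of Zc3h12b was -0.25 on the log2 scale and turned to 0.16 with equal totals. Zc3h12d was the only Regnase past 2-fold in the reported setting, and it passed the filter through the CKO library alone.

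Of all 12 Regnases and partners, 2 were at least 2-fold higher and 0 lower, near the shares of all genes, 13.4% and 5.35%. Their median log2 ratio was -0.14, which turned to 0.28 with equal totals. Arid5a, a protein that binds stem-loops of Il6 and protects the message from Reg-1, was the other gene that was higher, with 49 and 319 reads (2.10). The lowest was Chuk, the kinase IKKα, at -0.57, with 5555 and 5626 reads.

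Other messages reported as Reg-1 targets made up the last list. Of 11, 6 were at least 2-fold higher and 0 lower, with a median log2 ratio of 1.84. Of the 17469 genes, 13.4% were at least 2-fold higher. Ratios ran from -0.41 for Il17ra, a sign that turned to 0.01 with equal totals, to 5.16 for the chemokine Cxcl1, which was 4.02 with no constant subtracted. Ier3 had the most reads over both libraries together, 380 and 2702. With no constant subtracted, 5 of the 11 were higher and the median was 0.99, and with equal totals 8 were higher and the median was 2.25. In those settings, 5.98% and 21.9% of all genes past the filter were higher. Of these 11 genes, Zc3h12a, Ptgs2, Ier3 and Irf4 held 1 stem-loop match each in the 3′ UTR and the other 7, Cxcl1 and Il17ra among them, held none. Tfrc was the only gene past 2-fold in the lower direction among the measured targets and these 11, where 5.35% of the 17469 genes were. With equal totals (-0.65) and from the values as deposited (-0.47), Tfrc was lower by less than 2-fold.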

How the data were processed

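Poly(A) RNA from left kidneys was sequenced as 1 library per group. The authors aligned reads with STAR 2.7.3a (build mm10), counted genes with HTSeq and normalized with DESeq2. The deposited whole numbers were treated as a score, because each column starts above 0 (35 and 51), and the origin of that offset was not given in the sources used here. The offsets less 1 (34 and 50) were subtracted, CKO reads were multiplied by 0.667, and 1 was added to both before log2. A gene needed 10 scaled reads in either library to be counted, and the threshold was 2-fold. Intervals are exact Poisson (reads) and Clopper-Pearson (ratios) at 95%. No test was made. Motifs were searched in the coding transcript with the longest 3′ UTR per gene in GENCODE M21, and reads per kilobase use that transcript. Scripts ran in Python 3.11.15 with pandas 2.3.3 and scipy 1.17.1, checked on simulated data. Alternatives changed the offset, scaling, added read, filter and threshold. Named genes are the 10 targets, every Regnase, partner chains and receptors, and of each list the highest, the lowest and the most abundant marker, of which 1 gene is not reported here. Arid5a, Hba-a1, Slc11a2, Ptgs2, Irf4, Lcn2, Havcr1, Cd3e, Cd8a, Zap70, Flt3 and Xcr1 fall outside that rule and were chosen after their values were seen. The members and lists were chosen with earlier results of these data known.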

Additional observations from a re-analysis of the deposited data

How the results depend on the processing

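Nfkbiz, Nfkbid and Rel stayed at least 2-fold higher in all 9 settings of scaling, offset and added read, and the log2 ratio of Rel ranged from 1.09 to 1.88. Of 56 single-gene values under alternatives, 49 stayed within their counting intervals and 7 moved: Nfkbid with no constant subtracted (1.17), from the values as deposited (1.74) and with 10 reads added (2.07), Nfkbiz as deposited (3.21) and with equal totals (3.26), and Tfrc in the same settings (-0.47 and -0.65). With no constant subtracted, the median log2 ratio of the 7 members that then passed the filter, Il12b included, was 0.3045 (0.70 over the 6 of the reported median). In that setting 1196 genes (5.98%) were higher and 463 (2.31%) lower. Shares here and below are of all genes past the filter in each setting. From the values as deposited, 0 members were lower, and 3574 genes (17.9%) were higher and 131 (0.655%) lower. Equal totals gave 5 members higher and 0 lower, with 3870 genes (21.9%) higher and 437 (2.47%) lower. With at least 50 reads the median of the 4 remaining members was 2.1485 and 617 genes (4.29%) were lower. At 1.5-fold, 5 members were higher, with 3801 genes (21.8%) higher and 2423 (13.9%) lower. At 4-fold 0 members were lower, with 749 genes (4.29%) higher and 166 (0.95%) lower. The cause of these shifts was not tested, except as follows. A lower threshold counts more genes by construction. With equal totals, Icos, Tnfrsf4 and Tfrc crossed the 2-fold limit by the shift that all genes shared. Depth limits Nfkbid, Il12b, Tnfrsf4 and Icos, with 6, 7, 11 and 23 control reads. The intervals of Il12b, Tnfrsf4 and Icos are wide for that reason, so staying within them is a weak check. Tnfrsf4 went from 0.94 to 0.30 with no constant subtracted and stayed within its interval, -0.02 to 2.13. No paired analysis was possible because a group was 1 library.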

Other observations

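Stem-loops of the kind held by Nfkbiz, Nfkbid, Rel, Icos and Tfrc were counted over the 14292 genes past the filter that had an annotated 3′ UTR, of which 14.3% were at least 2-fold higher and 3.76% lower, a description chosen after the values of these genes were seen. Of 236 genes with at least 2 such stem-loops in the 3′ UTR, 29 (12.3%) were at least 2-fold higher in the CKO library and 5 (2.12%) lower. Of 1472 genes with 1 stem-loop, the group of Tnfrsf4, 12.8% were higher and 2.79% lower. Of 12584 genes with none, 14.5% were higher and 3.9% lower. The medians of the log2 ratio were 0.09, 0.06 and 0.03. Genes with stem-loops had longer 3′ UTRs, with a median of 3152 bases for at least 2 against 1033 for none. Among 3′ UTRs of at least 1500 bases, 12% of 1198 genes with a stem-loop and 13.1% of 4594 without were at least 2-fold higher. These shares were not tested against each other. The part of the stem-loops in the higher reads of Nfkbiz, Nfkbid and Rel was not tested either.

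Lcn2, an iron-carrier binding protein of injured tubules, and Havcr1, which encodes KIM-1, are the messages on which the Reg-2 study centres, and both were named after their values were seen. Lcn2 had 28 control and 3797 CKO reads, and Havcr1 had 1639 and 21332.

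Of 7 markers of other nephron segments and vessels, 0 were past 2-fold, and the median log2 ratio of -0.07 turned to 0.35 with equal totals. The highest was Aqp2 at 0.79. Of 7 reference genes, 1 was at least 2-fold higher, B2m at 1.57, the light chain of MHC class I. Their median was -0.03, which turned to 0.39 with equal totals. The lowest was Gapdh at -0.68, and Ppia, with the most reads, stood at 30364 and 44714.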
